A study of Homo sapiens with 6 samples.

Results

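The 10 genes described here encode the repressors of the circadian clock and factors close to them: the period genes PER1, PER2 and PER3, the cryptochromes CRY1 and CRY2, the activator CLOCK, the nuclear receptors NR1D1 and NR1D2, and the basic helix-loop-helix repressors BHLHE40 and BHLHE41. They were taken by symbol from a table of 20263 human genes counted by RNA sequencing, and all 10 had a row and enough reads to be tested among 13444 genes. The libraries came from HCCLM3, an established human hepatocellular carcinoma line, after 24 h with CC-885 (3 libraries) or with its solvent DMSO (3 libraries). CC-885 is a small molecule that binds cereblon, the substrate receptor of a ubiquitin ligase, and redirects the ligase to other proteins, among them the translation termination factor GSPT1. The labels used here give no dose, and both groups were grown in the same serum-containing medium. Only 1 time point was sampled, so the values are levels at that time and carry no information on rhythm or phase.

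In the clock, CLOCK and its partner BMAL1 form a heterodimer that binds E-boxes and switches on the PER and CRY genes, whose proteins then return to the nucleus and block the heterodimer. A second loop is formed by the REV-ERB receptors, encoded by NR1D1 and NR1D2, which repress BMAL1 at sites they share with the activating ROR receptors. BHLHE40 and BHLHE41 bind E-boxes and repress there. In the liver this circuit is known for setting daily rhythms of metabolic genes, in part through the output bZIP factors DBP, TEF, HLF and NFIL3. PER1, NR1D1 and BHLHE40 are also known to respond quickly to signalling, PER1 through CREB.

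Library totals lay between 30432509 and 39809131 counts. Libraries of 1 group correlated at 0.977 or more in log2 CPM (counts scaled to library size), and libraries of different groups at 0.946 or less. Of 8 liver markers, ALB, AFP and TTR had 0 counts in all 6 libraries, so the line lacks the defining secreted hepatocyte products, while its keratins KRT8 and KRT18 made up nearly all of the summed 1361 to 1655 CPM with CC-885 and 1806 to 2211 CPM with DMSO. Among the liver markers HNF4A was lower with CC-885 (0.214 against 1.25 CPM, edgeR adjusted p = 0.00156). KRT8 was lower too (889.8 against 1251.5 CPM, edgeR adjusted p = 0.0236), and KRT18 was not called (edgeR adjusted p = 0.263). The 5 fibroblast markers summed to 152 to 186 and 158 to 189 CPM, with LUM at 0. Within these near-equal sums COL1A1 was higher with CC-885 (155 against 104 CPM, edgeR adjusted p = 0.00327), while PDGFRB (14.1 against 70.9 CPM, adjusted p = 8.63e-07) and DCN (0.126 against 1.21 CPM, adjusted p = 8.21e-05) were lower. The 4 blood markers summed to 2.96 to 3.81 and 2.51 to 3.60 CPM, with PTPRC and CD3E at 0. The 3 endothelial markers summed to 3.11 to 4.93 and 0.872 to 1.35 CPM. CDH5 (2.11 against 0.168 CPM, edgeR adjusted p = 9.9e-06) and VWF (1.88 against 0.929 CPM, edgeR adjusted p = 0.0232) were higher with CC-885. PECAM1 had too few reads to be tested. The part of the endothelial markers in the results was not tested. No label states that replicates were separate cultures, so p-values reflect only the variation among these libraries, which could be technical in origin. In bulk RNA, fewer cells of a kind and less RNA per cell cannot be told apart.

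The sequences upstream of 6 of the genes are shown first, because 5 of these genes rose with CC-885 and the last, BHLHE41, is the close paralog of one of them that did not. Each is the 250 bases before a RefSeq start site on GRCh38.p14, 5′ to 3′ on the gene's strand, and NR1D2 is shown at the second of its 2 listed start sites. Capitals mark E-boxes (CACGTG), the related E-prime box (CACGTT), D-boxes (TTANGTAA) and the response element of ROR and REV-ERB receptors (RORE), each on either strand.
PER1, chr17:8152405-8152654, minus strand: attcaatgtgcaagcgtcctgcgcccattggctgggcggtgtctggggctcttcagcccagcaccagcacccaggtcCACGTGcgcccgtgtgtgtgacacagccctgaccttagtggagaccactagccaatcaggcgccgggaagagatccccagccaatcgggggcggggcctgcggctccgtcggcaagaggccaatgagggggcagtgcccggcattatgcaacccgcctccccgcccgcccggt
CRY1, chr12:107093550-107093799, minus strand: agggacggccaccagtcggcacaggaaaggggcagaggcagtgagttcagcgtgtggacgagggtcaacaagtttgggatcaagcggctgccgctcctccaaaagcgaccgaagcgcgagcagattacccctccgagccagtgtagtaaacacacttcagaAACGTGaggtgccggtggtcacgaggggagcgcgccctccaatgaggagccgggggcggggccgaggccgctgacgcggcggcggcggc
NR1D1, chr17:40100590-40100839, minus strand: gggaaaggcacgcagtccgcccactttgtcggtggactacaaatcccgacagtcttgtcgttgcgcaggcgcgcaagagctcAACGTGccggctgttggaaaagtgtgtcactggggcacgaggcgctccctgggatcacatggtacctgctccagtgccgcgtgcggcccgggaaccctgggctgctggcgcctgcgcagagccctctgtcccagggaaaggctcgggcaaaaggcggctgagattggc
NR1D2, chr3:23945871-23946120, plus strand: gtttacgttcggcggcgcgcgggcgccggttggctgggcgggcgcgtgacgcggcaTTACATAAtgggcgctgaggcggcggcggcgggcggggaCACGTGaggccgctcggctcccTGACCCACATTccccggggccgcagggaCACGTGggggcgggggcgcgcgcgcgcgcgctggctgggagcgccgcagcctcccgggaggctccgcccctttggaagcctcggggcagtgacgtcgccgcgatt
BHLHE40, chr3:4979187-4979436, plus strand: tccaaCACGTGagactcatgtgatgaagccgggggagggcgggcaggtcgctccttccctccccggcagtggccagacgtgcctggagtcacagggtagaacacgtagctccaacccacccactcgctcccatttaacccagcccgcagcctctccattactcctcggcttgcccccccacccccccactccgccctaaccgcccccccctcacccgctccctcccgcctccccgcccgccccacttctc
BHLHE41, chr12:26125038-26125287, minus strand: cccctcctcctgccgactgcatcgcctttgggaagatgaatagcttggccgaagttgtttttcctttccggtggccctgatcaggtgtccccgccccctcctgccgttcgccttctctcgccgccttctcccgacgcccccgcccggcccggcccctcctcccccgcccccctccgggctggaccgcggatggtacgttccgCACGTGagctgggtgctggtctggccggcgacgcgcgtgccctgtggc
With the start site as the origin, the first base of an E-box was at -173 in PER1, -245 in BHLHE40 and -48 in BHLHE41, and NR1D2 had E-boxes at -155 and -105. CRY1 and NR1D1 had the E-prime box, at -89 and -168. Over the 14 windows listed for the 10 genes, the E-box was in 4 and the E-prime box in 5, while 6.32% and 4.55% of all 34943 such windows held them. Apart from the first CRY2 window (44.8%), the member windows held 64.8% to 81.6% G and C. The median over all windows was 58.0%, and the shares given here were not matched for this. A D-box was in 2 member windows, upstream of PER3 and NR1D2 (1.99% of all windows), and a RORE in 2, upstream of CLOCK and NR1D2 (0.27%). The full cAMP response element TGACGTCA was in 0 of the 14 windows (1.63% of all), and its half-site TGACG was in 5 (21.18% of all). These are letter matches in a short window and not measured binding sites, and the E-box occurred upstream of BHLHE41 as well as upstream of genes that rose. An E-prime box also lay upstream of PER2 (-197) and of the second listed start sites of CRY2 (-188) and CLOCK (-187). These genes were not called as changed. PER3, which rose, had neither box at its listed start sites.

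With CC-885, PER1, PER3, CRY1, NR1D1, NR1D2 and BHLHE40 rose between 1.74-fold and 3.76-fold, and PER2, CRY2, CLOCK and BHLHE41 were not called. Thus 6 of the 10 genes were higher at an adjusted p below 0.05 (edgeR quasi-likelihood test, Benjamini-Hochberg adjustment over all tested genes), and 0 were lower. Of all tested genes 52.6% were called, 25.8% as higher and 26.8% as lower. No member was lower at an unadjusted p below 0.05 either, and the DESeq2 Wald test and limma-voom also gave 6 higher and 0 lower. The median log2 fold change of the 10 genes was 0.89, against -0.04 over all tested genes. In 6 of the genes every CC-885 library lay above every DMSO library, as in 29.9% of tested genes, and in BHLHE41 every CC-885 library lay below, as in 31.2%. Together, groups did not overlap in 61.1% of tested genes.

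**Figure D1:**
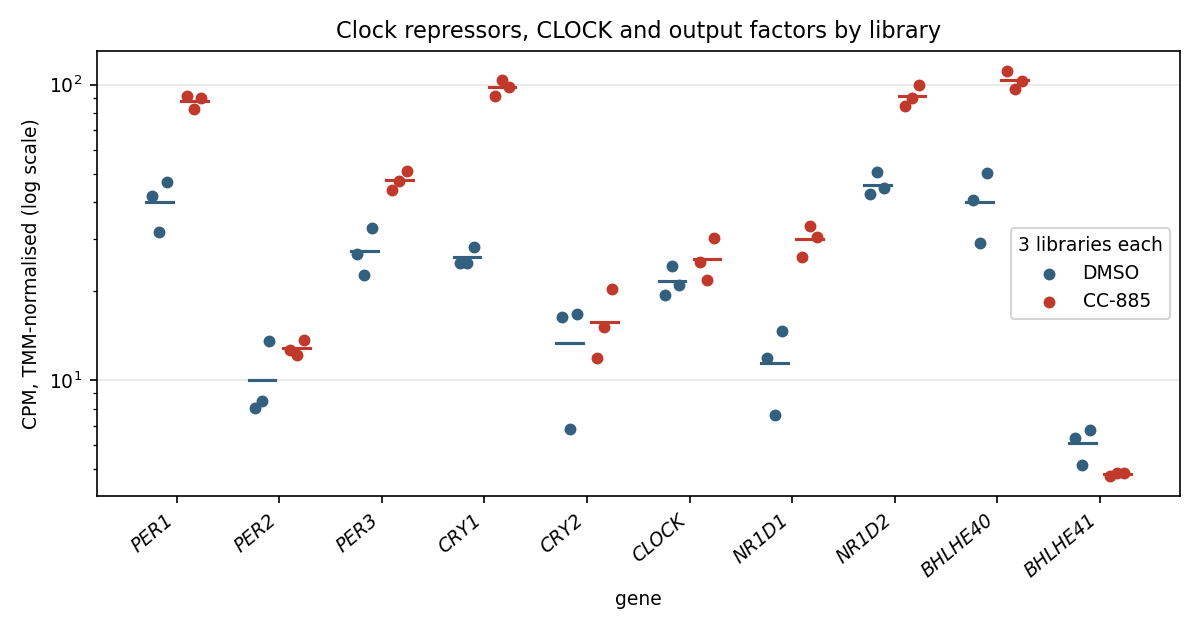
TMM-normalised CPM on a log axis for the 10 genes, with each point 1 library and each line the mean of 3. The CC-885 points of PER1, PER3, CRY1, NR1D1, NR1D2 and BHLHE40 lie above all their DMSO points, and those of PER2, CRY2 and CLOCK overlap.

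Among the period genes, whose proteins carry the CRY proteins into the repressor complex, PER1 changed most. PER1 (ENSG00000179094) read 91.7, 83.0 and 90.3 CPM in the CC-885 libraries and 42.0, 31.7 and 46.9 CPM in the DMSO libraries (replicates 1 to 3 in each case). The groups were far apart, and the lowest value was that of DMSO replicate 2. Its mean was 88.3 ± 4.65 CPM against 40.2 ± 7.75 CPM (SD, n = 3), a log2 fold change of 1.14 (SE 0.15, edgeR adjusted p = 0.000114). PER3 (ENSG00000049246), the period gene that is not essential for the core loop, read 44.1, 47.1 and 51.1 CPM with CC-885 and 26.8, 22.6 and 32.7 CPM with DMSO. All 3 treated values were again above the controls, with a log2 fold change of 0.80 (SE 0.15, edgeR adjusted p = 0.00121).

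PER2 (ENSG00000132326), a core period gene of the loop, did not pass the test. It read 12.6, 12.2 and 13.7 CPM with CC-885 and 8.07, 8.50 and 13.5 CPM with DMSO. A single control library, DMSO replicate 3, reached the treated range, and the log2 fold change was 0.36 (SE 0.20, edgeR adjusted p = 0.151). Without that library it was 0.63 and passed (adjusted p = 0.00566), while over all 14 alternatives the adjusted p ranged from 0.00566 to 0.411.

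The cryptochromes, the main direct inhibitors of the CLOCK heterodimer, went apart. CRY1 (ENSG00000008405) showed the largest change of the 10 genes. It read 91.9, 104 and 98.0 CPM with CC-885 and 24.93, 24.98 and 28.3 CPM with DMSO, with little spread in either group. Its mean rose 3.76-fold, from 26.1 ± 1.91 to 98.0 ± 6.15 CPM (log2 fold change 1.91, SE 0.13, edgeR adjusted p = 1.14e-06), a change at least as large in size as in 95.3% of tested genes. CRY2 (ENSG00000121671) read 11.8, 15.1 and 20.4 CPM with CC-885 and 16.3, 6.84 and 16.7 CPM with DMSO. These ranges overlapped widely (log2 fold change 0.25, SE 0.37, edgeR adjusted p = 0.606), and without DMSO replicate 2, its lowest library, the log2 fold change was -0.05 (adjusted p = 0.852, range over the alternatives 0.433 to 0.960).

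CLOCK (ENSG00000134852), the activator of the set and a histone acetyltransferase, was near its control level. It read 25.01, 21.9 and 30.2 CPM with CC-885 and 19.4, 24.4 and 21.0 CPM with DMSO, so the groups overlapped. The log2 fold change was 0.25 (SE 0.16, edgeR adjusted p = 0.203), and it was not called under any of the 14 alternatives.

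Both REV-ERB genes, whose products are haem-binding repressors, rose. NR1D1 (ENSG00000126368), encoding REV-ERB alpha, read 26.1, 33.3 and 30.5 CPM with CC-885 and 11.9, 7.63 and 14.7 CPM with DMSO. The controls were spread widely around a mean of 11.4 ± 3.55 CPM, and the treated libraries were still above all of them (log2 fold change 1.40, SE 0.22, edgeR adjusted p = 0.000451). NR1D1 shares 263 of its 2772 exon bases (9.5%, GENCODE 29) with THRA, the thyroid hormone receptor gene on the opposite strand, and no source says whether strand was used in counting. THRA fell, from 118 ± 10.7 to 43.4 ± 3.61 CPM (SD, n = 3, log2 fold change -1.45, SE 0.13, edgeR adjusted p = 7.72e-06), the direction opposite to NR1D1. NR1D2 (ENSG00000174738), encoding REV-ERB beta, read 84.7, 90.0 and 99.5 CPM with CC-885 and 42.6, 50.7 and 44.5 CPM with DMSO. It rose 1.99-fold with little spread (log2 fold change 0.99, SE 0.13, edgeR adjusted p = 8.92e-05), and no other annotated gene shares its exons.

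The basic helix-loop-helix repressors behaved differently from each other. BHLHE40 (ENSG00000134107), which is also induced by hypoxia and serum, read 111, 97.0 and 103 CPM with CC-885 and 40.7, 29.1 and 50.4 CPM with DMSO. The groups did not overlap, and the mean rose 2.59-fold (log2 fold change 1.37, SE 0.18, edgeR adjusted p = 0.000125). BHLHE41 (ENSG00000123095) was low throughout, at 4.73, 4.84 and 4.85 CPM with CC-885 and 6.37, 5.15 and 6.78 CPM with DMSO. Its treated values were almost equal and all below the controls, but the log2 fold change of -0.34 did not pass the test (SE 0.17, edgeR adjusted p = 0.114). Without DMSO replicate 2 it was -0.44 and passed (adjusted p = 0.0456, range over the alternatives 0.0456 to 0.297). SSPN, which shares 162 exon bases (4.1%) with BHLHE41 on the opposite strand, had 0 counts with CC-885, which allows 0.0754 to 0.0986 CPM (3 counts, counting error only), and 0.307 to 0.327 CPM with DMSO.

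**Figure D2:**
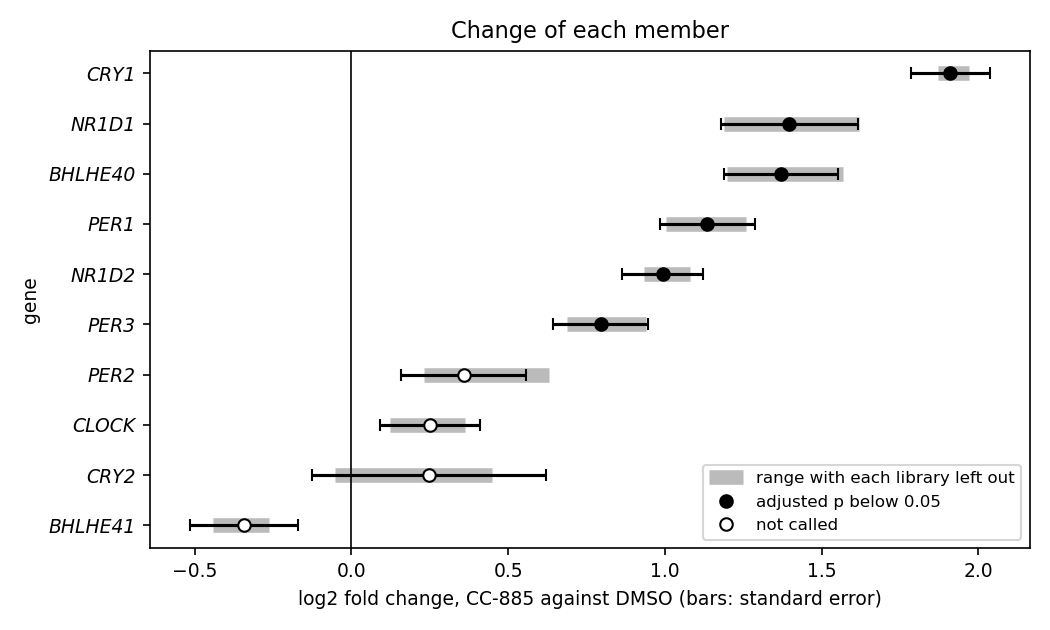
Log2 fold change of CC-885 against DMSO for each of the 10 genes (points, with standard errors as bars), and the range when each of the 6 libraries was left out in turn (grey). CRY1 stands highest at 1.91, the 6 called genes stay at 0.69 or above, and CRY2 crosses 0 when a library is left out.

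DMSO replicate 2 was the lowest control library for PER1, PER3, CRY2, NR1D1, BHLHE40 and BHLHE41, and the highest control for CLOCK and NR1D2. Each of the 6 calls held when any 1 library was left out, with a largest adjusted p of 0.00842, for PER3. The other members share few exon bases with annotated neighbours. PER3 shares 10.7% with UTS2, which had 0 counts in all 6 libraries, and 6.0% with an opposite-strand gene that has no row in the table. PER1, PER2, CRY1, CLOCK and BHLHE40 share 2.7% or less with any 1 gene, and CRY2 shares none.

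Levels were compared between genes as CPM per kilobase of exon (union of GENCODE 29 exons). With DMSO, BHLHE40 stood highest at 10.4 ± 2.77 CPM per kilobase (SD, n = 3), followed by NR1D2 (7.89), PER1 (5.74), CRY1 (5.15), NR1D1 (4.11), PER3 (3.38), CRY2 (2.14), CLOCK (1.84), BHLHE41 (1.55) and PER2 (1.46). Most neighbours in this order overlapped in their libraries, and only NR1D2 and PER1, and PER3 and CRY2, were separate. With CC-885, BHLHE40 was again highest at 27.0 ± 1.88 CPM per kilobase, and CRY1 came next at 19.4 ± 1.21. NR1D2 (15.7), PER1 (12.6), NR1D1 (10.8) and PER3 (5.86) followed, and CRY2 (2.54), CLOCK (2.18), PER2 (1.87) and BHLHE41 (1.22) came last. Here PER1 and NR1D1, CRY2 and CLOCK, and CLOCK and PER2 overlapped, and all other neighbours were separate. The 6 called genes were thus the 6 with the highest level per kilobase in both groups. In CPM, the members lay between the 21.3 and 64.4 percentile of tested genes with DMSO.

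Ratios within a library do not depend on scaling, and 6 gene pairs were compared in this way (log2 ratio of counts, difference of CC-885 minus DMSO). For BHLHE40 to BHLHE41 the treated libraries gave 4.54, 4.31 and 4.39 and the controls 2.66, 2.49 and 2.88, a difference of 1.73. That of CRY1 to CRY2 was 2.95, 2.78 and 2.26 against 0.61, 1.86 and 0.75, a difference of 1.59. Both shifted towards the first gene of the pair in every treated library. The ratio of PER1 to PER2 differed by 0.76, that of PER2 to PER3 by -0.41, and that of CLOCK to its paralog NPAS2 by -1.41. In these 5 pairs the groups did not overlap, and each gave p = 0.1 in a two-sided exact permutation test, the smallest value that 3 against 3 allows (0.12 adjusted over the 6 pairs), so none could pass 0.05. NR1D1 to NR1D2 overlapped between the groups (difference 0.44, exact permutation p = 0.3, adjusted 0.3).

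**Figure D3:**
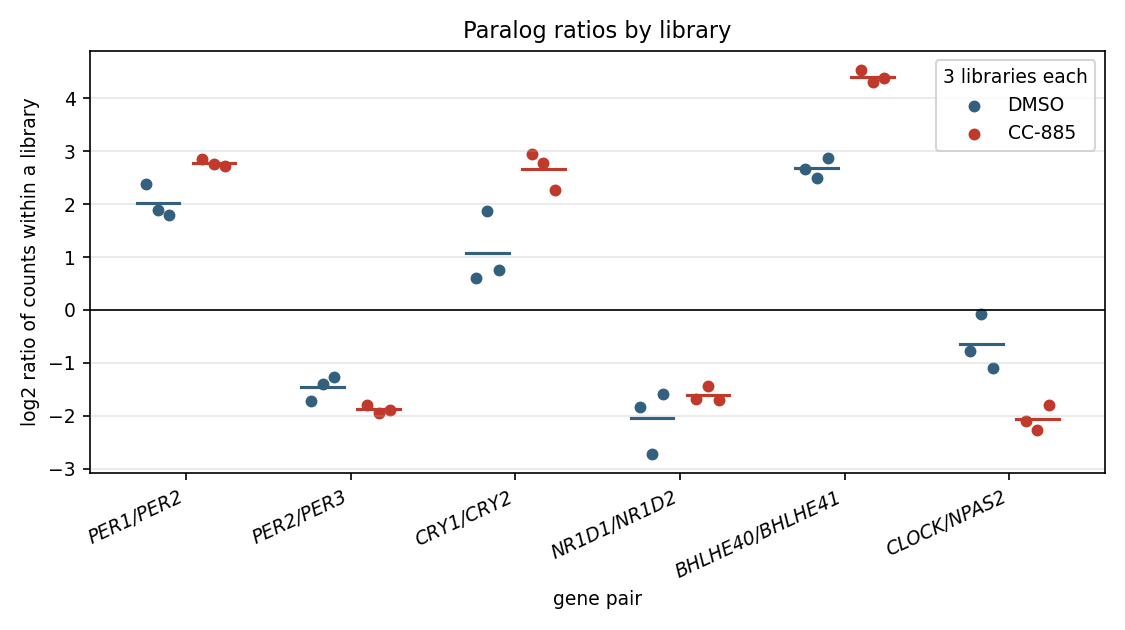
Log2 ratio of counts of 6 gene pairs within each library, with each point 1 library and each line the mean of 3. The CC-885 points lie above the DMSO points for PER1/PER2, CRY1/CRY2 and BHLHE40/BHLHE41, below them for PER2/PER3 and CLOCK/NPAS2, and overlap for NR1D1/NR1D2.

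The other genes of the circuit were taken as 5 lists with 39 genes, all of them tested, of which 20 were higher and 6 lower. Over all tested genes, 25.8% were higher and 26.8% lower. The partners of the members moved in both directions: of 6 activators and ROR receptors 3 were higher and 2 lower. NPAS2, which can take the place of CLOCK, read 107, 106 and 106 CPM with CC-885 and 33.2, 25.7 and 45.1 CPM with DMSO (log2 fold change 1.62, edgeR adjusted p = 4.54e-05). BMAL1, the partner of CLOCK named above and a gene that REV-ERB receptors repress, read 43.0, 48.1 and 48.4 CPM against 29.1, 28.2 and 32.5 CPM (0.64, edgeR adjusted p = 0.00153). BMAL1 and NPAS2 thus rose in the same libraries as NR1D1 and NR1D2.

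RORB, an activating receptor of the ROR family, was low and fell (0.283 against 0.937 CPM, log2 fold change -1.71, edgeR adjusted p = 0.00218). RORA went the other way from a low level (1.58 against 0.830 CPM, 0.93, edgeR adjusted p = 0.0357). The call of RORA was lost under 6 of 13 alternatives, with an adjusted p from 0.0179 to 0.146 over all of them. Among these were the fits without treated replicate 1 (0.0517) or 3 (0.146) and without control replicate 1 (0.142) or 3 (0.0583). BMAL2 was not called (log2 fold change 0.02), and its sign changed with the scaling.

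Of the 5 output factors, which pass the rhythm on to other genes, 1 was higher and 2 lower (25.8% and 26.8% of all tested genes). DBP, an activator at D-boxes and a classical E-box target of the CLOCK heterodimer, fell from 11.04, 8.25 and 12.5 CPM with DMSO to 2.998, 2.55 and 2.18 CPM with CC-885 (log2 fold change -2.04, edgeR adjusted p = 1.68e-05). It shares 10.1% of its exon bases with SPHK2 on the opposite strand. The related TEF fell too, from 7.63 ± 0.383 to 4.28 ± 0.948 CPM (SD, n = 3, log2 fold change -0.83, edgeR adjusted p = 0.00334). NFIL3, the repressor that competes with them at D-boxes, rose from 22.9, 22.7 and 23.1 CPM to 69.4, 79.6 and 63.1 CPM (1.63, edgeR adjusted p = 3.72e-06). The third activator, HLF, was scarce at 0.206 against 0.448 CPM and did not pass (-1.11, edgeR adjusted p = 0.0546). It passed with limma-voom (adjusted p = 0.0449) and with scaling by library size only (0.0430), and over its alternatives the adjusted p ranged from 0.0430 to 0.194. CIART, a repressor and E-box target, was not called (0.23, edgeR adjusted p = 0.210).

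**Figure D4:**
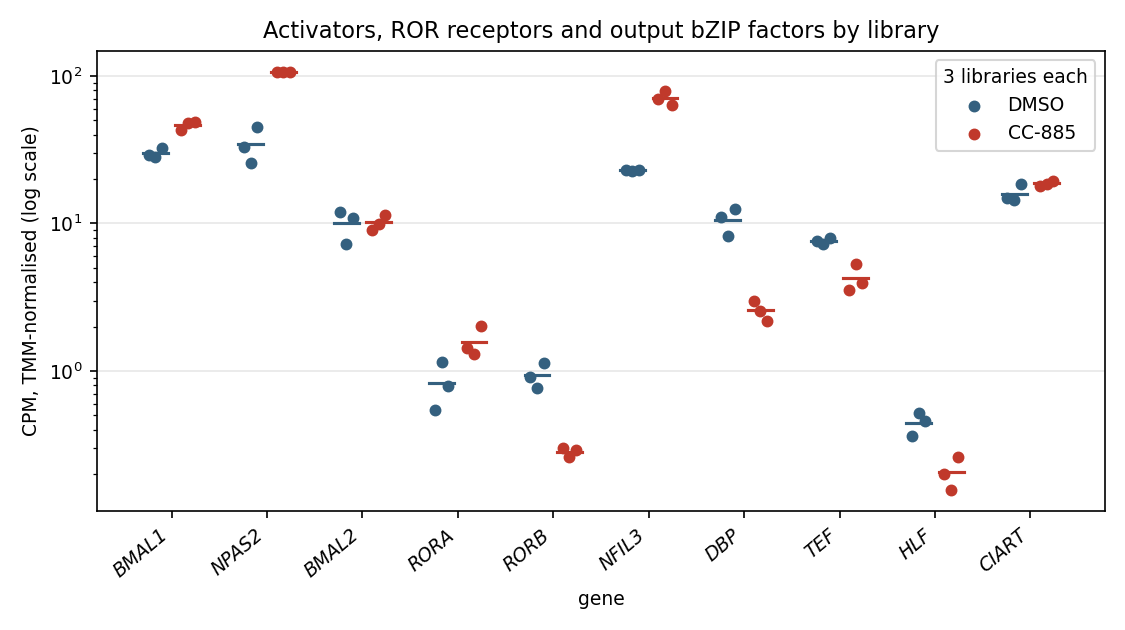
TMM-normalised CPM on a log axis for activators, ROR receptors and output factors, with each point 1 library and each line the mean of 3. NPAS2, BMAL1, RORA and NFIL3 are higher in all CC-885 libraries, and RORB, DBP, TEF and HLF lower. The points of BMAL2 and CIART overlap. HLF was not called despite the separate points.

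Of 14 genes for the enzymes and partners that set the stability of PER and CRY proteins, 10 were higher and 2 lower. Of all tested genes, 25.8% were higher and 26.8% lower. BTRC, a ligase subunit that recognises phosphorylated PER, went from 52.7 ± 2.51 to 112 ± 6.68 CPM (SD, n = 3, log2 fold change 1.09, edgeR adjusted p = 2.89e-05). PRKAA2, a catalytic subunit of AMP-activated kinase, which marks CRY for decay, went from 27.6 ± 1.12 to 54.9 ± 3.24 CPM (0.99, edgeR adjusted p = 6.25e-05). The phosphatase subunit PPP1CB (-0.54, edgeR adjusted p = 0.00734) and the replication fork factor TIMELESS (-0.48, edgeR adjusted p = 0.0162) were lower. The call of TIMELESS was lost without treated replicate 2 (0.0554) or 3 (0.0615) and without control replicate 1 (0.0651), with an adjusted p from 0.000646 to 0.0651 over its alternatives.

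The 6 genes of the corepressor that REV-ERB receptors recruit, NCOR1 and HDAC3 among them, gave 0 calls in either direction (edgeR), 0 at an unadjusted p below 0.05, and 0 with the DESeq2 Wald test or limma-voom. Their log2 fold changes ran from -0.22 to 0.28, and 52.6% of all tested genes were called. Among 8 genes of the CREB input, through which cAMP and stress signals reach PER1, 6 were higher and 0 lower. The shares over all tested genes were 25.8% and 26.8%. The counts of the CREB input were the same by the other tools and at an unadjusted p below 0.05. CREM, a cAMP-inducible relative of CREB1, went from 44.8 ± 4.43 to 103 ± 10.5 CPM (SD, n = 3, log2 fold change 1.20, edgeR adjusted p = 3.49e-05). The coactivator CRTC3 went from 348 ± 54.4 to 730.4 ± 26.9 CPM (1.07, edgeR adjusted p = 0.000193). SIK1, the kinase that holds CRTC proteins back, was higher as well (0.84, edgeR adjusted p = 0.000242), although reads of its near-identical copy SIK1B may be split between the genes.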

How the data were processed

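The authors deposited 1 table of raw whole-number counts per gene, with a column for each of 6 libraries. Per the labels' protocols, libraries were made from total RNA with an mRNA kit. Neither aligner nor counter is named in the sources used here. Mouse builds (GRCm38, mm10) are named in the submitters' processing notes, but every identifier is a human Ensembl gene, so coordinates are given only for RefSeq start sites on GRCh38.p14. Of 20263 identifiers 20148 were named by a gene name table and 76 by GENCODE 29. Low counts were mostly even (66.8% of values from 1 to 20), so fragments may have been counted as paired reads.

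Counts were fitted with edgeR 4.0.16 (R 4.3.3): TMM factors, filterByExpr with a minimum count of 10, robust quasi-likelihood F test, no covariate. Standard errors were derived from the fold change and F. CPM use TMM-scaled totals. Ratios were tested by exact permutation (scipy 1.17.1). In simulated data 200 genes were changed. The share of false calls there was near the threshold with a shared dispersion trend. It was above the threshold when each gene had its own dispersion. In the measured data 7069 of 13444 tested genes were called, so the simulated share need not hold for them. The members and lists were chosen with earlier results of these data known. All members, BMAL1, NPAS2, DBP, NFIL3 and CIART were named with any value, and up to 3 called genes per direction and list by smallest p. BMAL2 and HLF, and NCOR1 and HDAC3, were named after their values were seen. Some genes counted in the lists are not reported here by name. Alternatives were DESeq2 1.42.0 size factors or Wald test, library size only, limma-voom (limma 3.58.1), no filter, a minimum CPM of 5 in 3 or more libraries, halved counts, a replicate block, another prior count for ratios (0.5 for 2), and each library left out.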

Additional observations from a re-analysis of the deposited data

How the results depend on the processing

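The 6 higher calls among the clock genes held under all 14 alternatives for PER1, PER3, CRY1, NR1D1, NR1D2 and BHLHE40. The count of higher members was 6 to 7 and that of lower members 0 to 1 when a library was left out, and 6 and 0 under every other alternative. With the replicate number as a block it was 6 and 0 too, and of the 39 other clock genes 20 were higher and 6 lower, as without it. With 1 library left out, 16 to 21 of these other genes were higher and 5 to 7 lower. The CPM filter of 5 left 35 of them tested, with 18 higher and 4 lower. Same-numbered libraries deviated together only weakly (r = 0.0958, 0.0311 and 0.0722), so they share a number and were not treated as pairs. All genes gave 3597 higher and 3676 lower calls with the block, against 3471 and 3598. Scaling by library size only moved the split of all calls to 3164 higher and 3956 lower. Signs changed only in genes that were not called. With library size only, BMAL2 had a log2 fold change of -0.035 and TBL1X of -0.017, and with the CPM filter of 5 they had -0.046 and -0.029. With 1 library left out, CRY2 ranged from -0.053 to 0.45, BMAL2 from -0.16 to 0.18, FBXW11 from -0.025 to 0.20 and TBL1X from -0.11 to 0.19. RORA, RORB and HLF stood below 2 CPM in the mean of each group, and all 3 were left out by the CPM filter of 5.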

Other observations

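Gene patterns closest to those of PER1 and BHLHE40 were looked up by the Pearson correlation of log2 CPM over the 6 libraries, among 10802 other genes with a mean of at least 5 CPM. For PER1 the highest values were those of DTNBP1 (0.999), HEG1 (0.999) and ETV4 (0.999), with treated means of 37.3, 239 and 58.3 CPM and control means of 22.8, 136 and 14.9 CPM. For BHLHE40 they were ZFHX3 (0.999), TMEM178B (0.999) and ATP6V0A4 (0.999), with mean CPM of 168, 48.0 and 9.18 against 76.1, 23.8 and 5.24. All these correlations rest on 2 groups of 3 libraries and share the treatment contrast, and 1169 genes exceeded 0.95 with PER1 and 1116 with BHLHE40, so a high value singles out no gene.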
